A study of Mus musculus with 4 samples.

Results

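Transcripts of the blood lineages were followed in RNA-seq libraries of bone marrow stromal cells. The set holds 47 genes, chosen by symbol as textbook markers of red cells, neutrophils, macrophages, lymphocytes, plasma cells and platelets, with genes of MHC class II and genes that most leukocytes use. All 47 were among the 56980 genes of the deposited count table. They were ordered in 8 groups, and the question asked of each was whether it exceeded 3 counts in every library.

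The study asked how myeloid cells of embryonic origin shape the bone marrow niche of hematopoietic stem cells, and it used expression in these libraries of mesenchymal stromal cells (MSCs) to look for ligand and receptor pairs shared with macrophages. The MSCs came from the bone marrow of 4 wild-type male C57BL/6J mice aged 14 weeks, from a colony inbred in-house for 30 years. From each mouse 100 cells that carried CD51 and PDGFRa and lacked the antigens CD45, Ter119, CD31 and Sca1 gave 1 library of full-length, PCR-amplified cDNA primed on poly(A) tails. All 4 libraries form a single group, so no groups were compared and each value is given per mouse with the spread over the 4 mice.

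Bone marrow stroma is embedded in blood-forming tissue, where erythroblasts, granulocytes and their precursors outnumber stromal cells by far. Red cell precursors devote much of their mRNA to alpha and beta globin, and granule proteins dominate the mRNA of developing neutrophils. The gate removed cells with CD45, the phosphatase on nearly all leukocytes, and with Ter119, an antigen of the late red cell lineage, whereas early erythroid precursors carry little Ter119.

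The libraries held between 22738604 and 43545349 counts, and between 16109 and 18907 genes had at least 1 count. The stromal identity given in the labels was visible in each of them. Pdgfra, the gene of the sorted PDGF receptor, had between 4315 and 6779 counts, Itgav, which encodes CD51, had between 1710 and 3427, and the niche chemokine Cxcl12 had between 91187 and 393766. Of the genes gated against, Pecam1 (CD31) had between 5 and 14 counts in each library. Ly6a (Sca-1) had 1, 120, 0 and 144 counts in mice 1, 2, 3 and 4. The third gated antigen gene, Ptprc (CD45), is a member of the set and is described with the leukocyte genes. A count of 3 was taken as the smallest detectable value and corresponds to 0.0689, 0.115, 0.0702 and 0.132 counts per 1000000 (CPM) in mice 1 to 4. Such floors and the intervals below cover counting error only.

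Of the 47 genes, 6 exceeded 3 counts in every library. They were the 4 adult globin genes Hba-a1, Hba-a2, Hbb-bs and Hbb-bt, and the leukocyte genes Srgn and Fcer1g. This was 12.8% of the set. Among all listed genes 17.6% exceeded 3 counts in every library, and among protein-coding genes 37% did. The share of the set was thus below that of protein-coding genes in general, and it is a count of genes, not of RNA.

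Of the other 41 genes, 5 exceeded 3 counts in 3 libraries, 3 in 2 libraries, 9 in 1 library alone and 24 in none. Detection in a single mouse was therefore the most frequent outcome among the 23 genes seen at all. It applied to 39.1% of them, where 26.6% of all genes above 3 counts in at least 1 library were above it in 1 alone. For protein-coding genes above 3 counts in at least 1 library, that share was 16.2%. Detection in every library applied to 26.1% of the 23, where 48.6% of all genes seen in at least 1 library passed in every one. Of protein-coding genes seen in at least 1 library, 59.8% passed in every one. For scale, 23 of the 47 members (48.9%) were seen at all, against 13562 of 21922 protein-coding genes and 20598 of 56980 listed genes. Counts of genes seen in the groups and wider lists below are to be read beside these shares. The number of members above 3 counts was 15 in mouse 1, 8 in mouse 2, 18 in mouse 3 and 13 in mouse 4. Over all listed genes the numbers above 3 counts were 14985, 12690, 15728 and 14890 in mice 1 to 4, so the mice stood in the same order for the members as for all genes, with mouse 2 lowest in both.

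**Figure D1:**
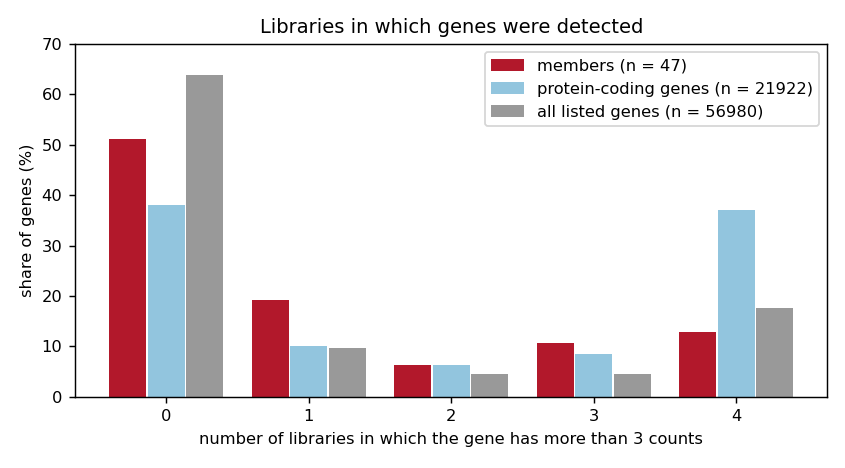
Share of genes (vertical axis, %) by the number of libraries in which the gene has more than 3 counts (horizontal axis), for the 47 members, all 21922 protein-coding genes and all 56980 listed genes. Of the members 12.8% stand at 4 libraries and 51.1% at 0, against 37.0% and 38.1% of protein-coding genes.

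The members took 0.169% of the counts of mouse 1 (95% Wilson interval 0.168 to 0.171), 0.00922% in mouse 2 (0.00886 to 0.00960), 0.0660% in mouse 3 (0.0652 to 0.0668) and 0.0217% in mouse 4 (0.0211 to 0.0223). The mean was 0.0666% ± 0.0727 (SD, n = 4 mice), and 0.0323% without mouse 1. The intervals of the 4 libraries do not overlap, so the libraries differed by more than the counting error of reads. The intervals treat each read as an independent draw although the cDNA was amplified, so they do not measure a difference between mice. What filled this share also differed. The erythroid members made up 94.8% of the member counts in mouse 1, 85.3% in mouse 3 and 60.0% in mouse 4, but 12.1% in mouse 2. In mouse 2, Srgn and Fcer1g held 82.8% of the member counts, against 3.87%, 11.9% and 31.3% in mice 1, 3 and 4. All remaining members together had 996, 123, 788 and 428 counts in mice 1 to 4. In bulk libraries, a smaller number of cells of a type and less RNA in each such cell cannot be told apart, and neither can RNA made by the MSCs and RNA of blood cells that entered the tube.

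The 4 globin genes form 2 pairs of near-identical copies. Hba-a1 (ENSMUSG00000069919, chr11:32283511-32284465, plus strand) and Hba-a2 (ENSMUSG00000069917, chr11:32296489-32297298, plus strand) encode the alpha chain of hemoglobin. Hbb-bs (ENSMUSG00000052305, chr7:103826534-103828096, minus strand) and Hbb-bt (ENSMUSG00000073940, chr7:103812524-103813996, minus strand) encode the beta chain of adult mice. These positions are those of the GENCODE M21 annotation of GRCm38, not of the GRCm39 build on which the reads were counted. Each gene has 3 exons. The alpha coding sequences are 429 bases long and differ at 1 base, C381T, counted from the A of the start codon with the base of Hba-a1 first. The beta coding sequences are 444 bases long and differ at 1 base, C417T, with the base of Hbb-bs first. Both differences fall on the last base of a codon and leave the amino acid unchanged. They lie in the last exon of each gene. The coding stretches around them are shown because these are the only coding bases by which the copies of a pair differ, with the differing base in capitals.

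Hba-a1, chr11:32284329-32284357: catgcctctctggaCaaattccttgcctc

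Hba-a2, chr11:32297146-32297174: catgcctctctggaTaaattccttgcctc

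Hbb-bs, chr7:103826678-103826706: gtggctggagtggcCgctgccctggctca

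Hbb-bt, chr7:103812669-103812697: gtggctggagtggcTgctgccctggctca

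A read that lies within the shared bases maps to both copies, and only uniquely mapped read pairs were counted. Of the 50-base stretches of the longest transcript, 32.5% occur in no other annotated gene for Hba-a1 and 13.1% for Hba-a2. For the beta pair these shares were 34.2% for Hbb-bs and 41.7% for Hbb-bt. The counts of all 4 genes are therefore lower than the reads they produced, and the division within a pair is uncertain. For 34 of the other 43 members all such stretches were unique. Reads were 100 bases long and were counted as pairs, so a pair can be placed where a 50-base stretch cannot. The share of pairs that could be placed was not computed.

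A link from promoter sequence to the levels in these libraries was not tested. The promoters of the 4 genes are shown as a description. In the 120 bases before the RefSeq start site (GRCm38.p6) each of them holds a CCAAT box and a CACCC box, searched by those letters. Each also holds ATATAA, the form of the TATA box searched here. None holds AGATAA, the form of the GATA motif that was searched. Both strands were searched, and the searched words do not overlap one another except where CCAAT adjoins its own reverse complement ATTGG in Hbb-bt. Of 32817 promoters of the table, 21.3% hold CCAAT, 31.7% CACCC, 4.47% ATATAA and 4.36% AGATAA in the same window. The alpha promoters were identical over 297 aligned bases, while the beta promoters matched at 168 of 299 (56.2%). The 30 bases around the TATA box are given 5′ to 3′ with ATATAA in capitals. In GENCODE M21, where some transcripts start farther upstream, the windows of Hba-a1 and Hbb-bt fall in the noncoding part of the first exon, that of Hbb-bs in an intron of an alternative transcript and that of Hba-a2 before the gene. The match of these letters is a description and not evidence of a bound site.

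Hba-a1, chr11:32283632-32283661, plus strand: cccttggagggcATATAAgtgctacttgct

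Hba-a2, chr11:32296449-32296478, plus strand: cccttggagggcATATAAgtgctacttgct

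Hbb-bs, chr7:103827941-103827970, minus strand: ccagggcagagcATATAAggtgaggtagga

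Hbb-bt, chr7:103813935-103813964, minus strand: ccagcattgggtATATAAagctgagcaggg

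Per length, Hba-a1 and Hbb-bs were the highest members in mice 1, 3 and 4, and in mouse 2 all 4 globins fell below Fcer1g. Hba-a1 had 25033, 65, 9037 and 1142 counts in mice 1, 2, 3 and 4, and Hba-a2 had 3178, 52, 1268 and 223. Hbb-bs had 26390, 119, 8575 and 1063 counts and Hbb-bt 10986, 54, 3184 and 354. Every globin was thus highest in mouse 1, then mouse 3, then mouse 4, and lowest in mouse 2. This order was the same for all 4 genes under each of the 6 ways of scaling that were tried.

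Scaled to depth, the 4 globins together reached 1506 CPM in mouse 1, 11.1 in mouse 2, 516 in mouse 3 and 122 in mouse 4, a 135-fold range. The ratio of highest to lowest CPM was 230 for Hba-a1, 36.6 for Hba-a2, 133 for Hbb-bs and 122 for Hbb-bt. Such spreads were unusual for genes of this level. The coefficient of variation over the mice was between 111% and 134% for the 4 globins. Among the 6394 genes with a mean from 10 to 100 CPM its median was 50% and its upper decile 95.1%, and among the 1087 genes from 100 to 1000 CPM these were 23.7% and 50.1%.

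The balance between the chains varied far less than their amount. The ratio of alpha to beta counts was 0.755, 0.676, 0.876 and 0.963 in mice 1 to 4, a 1.42-fold range. The ratio of Hbb-bs to Hbb-bt was 2.40, 2.20, 2.69 and 3.0. Both genes of the beta pair thus kept a similar proportion from 290 globin counts in mouse 2 to 65587 in mouse 1. The ratio of Hba-a1 to Hba-a2 was 7.88, 7.13 and 5.12 in mice 1, 3 and 4 but 1.25 in mouse 2, where it rests on 65 and 52 counts. In that pair the number of unique 50-base stretches is 211 for Hba-a1 and 66 for Hba-a2, so the ratio of counts is not a ratio of transcripts.

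The other erythroid members were Slc4a1, which encodes the anion exchanger band 3 of the red cell membrane, and Alas2, which encodes the erythroid enzyme that starts heme synthesis. Slc4a1 (chr11:102348824-102366203, 20 exons) had 3478, 0, 1701 and 179 counts in mice 1 to 4. It followed the order of the globins, and its level in mouse 1 was at least 694-fold above that in mouse 2, taking 3 counts as the floor of mouse 2. Alas2 (chrX:150547375-150570638) had 845, 0, 308 and 0 counts, so that only the libraries richest in globin held it. On the opposite strand the DNA repair gene Apex2 covers 12.9% of the exonic bases of Alas2, and the stated counting options include no strand setting. Apex2 had 904, 3, 646 and 0 counts, and its part in the Alas2 counts was not tested.

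Relative to globin, band 3 was steady where it was seen. Slc4a1 counts equalled 5.30%, 7.71% and 6.43% of the globin counts in mice 1, 3 and 4. In mouse 2, 3 counts correspond to 1.03% of the globin counts, so a proportion as in the other mice would have been above the floor there. That floor covers counting error only, and loss of the transcript during cDNA synthesis or amplification was not tested. Alas2 equalled 1.29% and 1.40% of the globin counts in mice 1 and 3. Its 0 in mouse 4 allows up to 0.108% by the same floor of 3 counts.

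A wider list of 20 erythroid genes gave the same picture for most of its genes, with a few that went another way. Of its 19 genes with an entry, 15 exceeded 3 counts in at least 1 library, 3 did so in every library and 10 of the 15 were at 0 in mouse 2. The highest CPM fell in mouse 1 for 12 of the 15, in mouse 4 for 2 and in mouse 2 for 1. Rhd, of the Rh antigen complex, had 3720, 59, 964 and 591 counts, which is 5.67%, 20.3%, 4.37% and 21.2% of the globin counts in mice 1 to 4. Car1, a carbonic anhydrase abundant in red cells and their precursors, had 2497, 0, 552 and 1387 counts, and in mouse 4 this equalled 49.9% of the globin counts against 3.81% in mouse 1. Relative to globin, Car1 was thus higher in mouse 4 than in mice 1 and 3, and Rhd was higher in mice 2 and 4. In genes chosen after their values were seen, Rhag, of the same Rh complex, equalled 2.02%, 34.1%, 2.23% and 7.40% of the globin counts and the ankyrin gene Ank1 0.721%, 33.8%, 1.14% and 0.0719%, both highest in mouse 2, where the globin counts were fewest.

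Other erythroid genes were picked out after their values were seen. Klf1, a transcription factor that drives erythroid genes, had 2304, 0, 355 and 484 counts, or 3.51%, 1.61% and 17.4% of globin counts in mice 1, 3 and 4. Gata1, another erythroid and megakaryocyte factor, had 1489, 0, 2 and 55 counts, so it was nearly missing from mouse 3 in spite of 22064 globin counts there. Sptb, which encodes beta spectrin and is also used outside red cells, had 1, 323, 249 and 128 counts and was highest in the library with the least globin. Of the embryonic and theta globins, Hbb-y, Hba-x and Hbq1a had 0 counts in every library, Hbb-bh1 had 1 count, in mouse 2, and Hbq1b had 9, in mouse 1. The globin of these libraries was of the adult type.

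**Figure D2:**
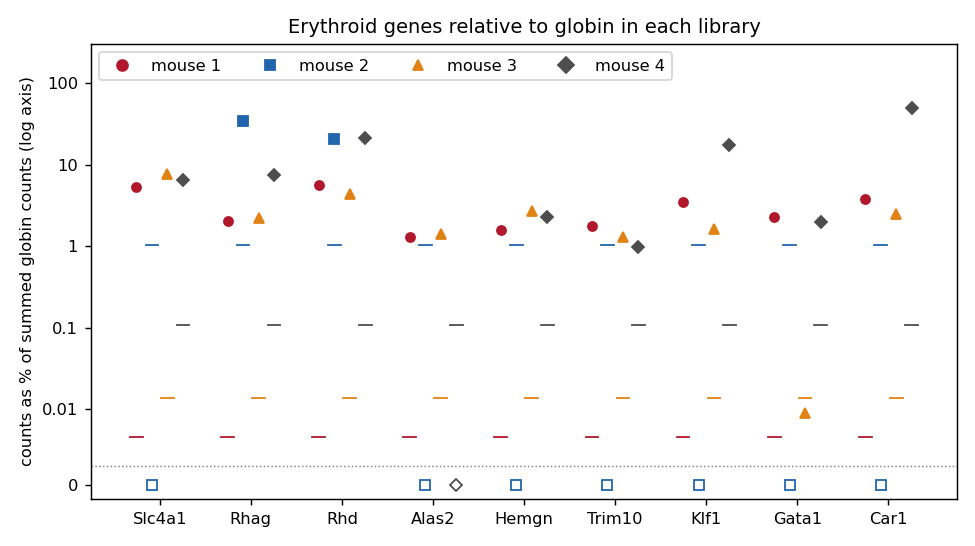
Counts of 9 erythroid genes as a percent of the summed counts of the 4 adult globins (vertical log axis) in each of the 4 libraries, with open symbols at the bottom for 0 counts and short bars for the share that 3 counts make up in that library. Slc4a1 lies between 5.30% and 7.71% in mice 1, 3 and 4 and at 0 in mouse 2, while Klf1 and Car1 stand higher in mouse 4 than in mice 1 and 3.

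As a group, the erythroid members summed to 4925, 35.0, 1690 and 355 transcripts per 1000000 (TPM, a level corrected for gene length) in mice 1, 2, 3 and 4. The mean was 1751 ± 2234 TPM (SD, n = 4 mice), an SD larger than the mean. Without mouse 1 the mean was 693 TPM, so that 1 library decided its size.

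No neutrophil member exceeded 3 counts in every library, and 5 of the 9 did so in at least 1. Among protein-coding genes 13562 of 21922 exceeded 3 counts in at least 1 library, a share no lower than that of the group. S100a8 and S100a9 encode the subunits of calprotectin, the main cytosolic protein of neutrophils. S100a8 (chr3:90668978-90670035) had 142, 0, 4 and 56 counts in mice 1 to 4, and S100a9 (chr3:90692632-90695721) had 36, 114, 26 and 0. The partners thus did not move together, with S100a9 highest in mouse 2, where S100a8 was at 0, and S100a8 present in mouse 4, where S100a9 was at 0. Camp, the precursor of the granule peptide cathelicidin, had 120, 0, 36 and 0 counts.

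Granule enzymes made early in neutrophil development appeared in 1 mouse each. Elane, neutrophil elastase, had 261 counts in mouse 1 and 0 in the others. Mpo, myeloperoxidase, had 52 counts in mouse 3 and 1 or 2 in the others, and overlaps the antisense gene Gm11505, which had 0 counts. These enzymes are usually made together in promyelocytes, and here they were not above 3 counts in the same library. Ngp, Ltf, Retnlg and Lcn2, all of later granules or mature neutrophils, stayed at 0 in every library except for 2 counts of Lcn2 in mouse 3.

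The group summed to 39.7, 19.7, 6.89 and 7.84 TPM in mice 1 to 4 (mean 18.5 ± 15.2, SD, n = 4), with a mean of 11.5 TPM without mouse 1. Of a wider list of 17 neutrophil genes, 6 exceeded 3 counts in at least 1 library and 1 in every library. That gene was Mmp8, a collagenase that stromal cells can also make, with 881, 470, 830 and 524 counts. Mmp9, a gelatinase also made by several cell types, had 433, 32, 879 and 0. The receptor Cxcr2 had at most 3 counts, and the proteinase Prtn3, chosen after its values were seen, had 362 counts in mouse 4 and at most 1 elsewhere, and mouse 4 is the mouse with 0 counts of Elane and 1 of Mpo.

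Macrophage members were found mainly in mouse 3, with 320 counts in all against 11, 0 and 5 in mice 1, 2 and 4. Cd68, an endosomal glycoprotein of phagocytes, had 11, 0, 144 and 5 counts in mice 1 to 4 (chr11:69664213-69666153). C1qb, a chain of complement component C1q, had 0, 0, 176 and 0 counts, but C1qa and C1qc, which encode the other chains of the same protein, had 0 counts in every library, mouse 3 included. The 3 genes are usually expressed together in tissue macrophages. Csf1r, the receptor for the macrophage growth factor CSF1, Adgre1, which encodes the F4/80 antigen, and Lyz2, lysozyme M, also had 0 counts in every library.

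Hmgxb3 runs antisense over 15.1% of the exonic bases of Csf1r and had 355, 306, 438 and 49 counts, while Csf1r had none. The group summed to 0.497, 0, 16.0 and 0.385 TPM, with a mean of 4.22 ± 7.85 TPM (SD, n = 4), or 0.294 without mouse 3. In the wider list of 15 macrophage genes, 2 exceeded 3 counts in every library. Mertk, a receptor for apoptotic cells that is not restricted to macrophages, had 961, 912, 988 and 152 counts. Mrc1, the mannose receptor, had 4, 18, 10 and 41, and Siglec1, a sialic acid receptor of marrow macrophages, had 2, 1, 4 and 1. The named macrophage genes of the wider list other than Mertk therefore had at most 41 counts in a library.

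Of the 7 members placed in the lymphoid group, 1 exceeded 3 counts in any library. The IgM heavy chain gene Ighm is not among them and is described with the plasma cell genes. Cd79a, the signalling chain of the B cell receptor, had 22 counts in mouse 4 and 0 in the others. Its partner Cd79b and the B cell antigen gene Ms4a1 (CD20) were at 0 in every library, and so were the T cell genes Cd3e and Trbc2 and the cytotoxic granule gene Nkg7. Cd3g had 1 count, in mouse 3. The group summed to 0, 0, 0.0177 and 1.46 TPM (mean 0.370 ± 0.728, SD, n = 4), and without mouse 4 the mean was 0.00590 TPM. Of the wider list of 17 lymphoid genes 2 exceeded 3 counts in any library. These were Vpreb1, part of the surrogate light chain of precursor B cells, with 0, 0, 75 and 9 counts, and Klrb1c, the NK1.1 antigen gene, with 140 counts in mouse 3, both named after their values were seen. Pax5, a B cell transcription factor, had 1 count, in mouse 2.

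Among the plasma cell members, the heavy chain was seen without its partners. Ighm, the constant region of IgM (chr12:113418558-113422730), had 296, 0, 0 and 255 counts in mice 1 to 4. Igkc, the kappa light chain constant region, had at most 1 count in a library, Jchain, which joins IgM into polymers, likewise had at most 1, and Iglc2, a lambda constant region, had 0 everywhere. Light chain and heavy chain transcripts are made side by side in plasma cells. In mouse 4 the Ighm counts coincided with the 22 counts of Cd79a, whereas mouse 1 had Ighm and 0 counts of Cd79a.

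The plasma cell group summed to 9.05, 0.0357, 0.109 and 13.3 TPM (mean 5.62 ± 6.63, SD, n = 4), with a mean of 3.06 TPM without mouse 4. In mice 1 and 4 nearly all of this was Ighm, at 8.92 and 13.1 TPM. The sum is thus largely that of 1 gene and not a level of plasma cell transcripts as a set. Of the wider list of 12 genes, Xbp1 and Sdc1 exceeded 3 counts in every library. Xbp1, a factor of the secretory stress response that all secretory cells use, had 23770, 12484, 19580 and 6677 counts, and Sdc1, syndecan-1, had 1827, 5147, 6456 and 968. Eaf2, a transcription elongation cofactor, had between 0 and 185, with its 0 in mouse 2. Of the other genes of that list only Irf4, named after its values were seen, exceeded 3 counts, with 4 in mouse 4, and the remaining 8 had 0 counts in every library.

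Platelet members appeared in 1 mouse each. Gp9, a subunit of the von Willebrand factor receptor on platelets, had 122 counts in mouse 1 and 0 in the others. Ppbp, a platelet chemokine precursor, had 5 counts in mouse 3 and 0 in the others, and Pf4, another platelet chemokine, had 1 count in mouse 1. Ppbp and Pf4 are among the most abundant platelet transcripts, so Gp9 was seen where they were at 0 or 1 count. The group summed to 7.95, 0, 0.267 and 0 TPM (mean 2.05 ± 3.93, SD, n = 4), and to a mean of 0.0891 TPM without mouse 1. In the wider list of 12 platelet genes, the broadly expressed genes Rap1b, with 4617, 2919, 6266 and 2572 counts, and Itgb3, with 172, 457, 1051 and 432, exceeded 3 counts in every library. Vwf, von Willebrand factor of endothelium and megakaryocytes, had 44, 0, 1 and 0 counts. Of the 12 genes, 6 had 0 counts in all libraries.

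MHC class II molecules present peptides to helper T cells and are made by B cells, dendritic cells and macrophages. H2-Eb1, the beta chain of I-E (chr17:34305867-34316674), had 1, 4, 146 and 38 counts in mice 1 to 4. Cd74, the invariant chain that accompanies every class II molecule, had 0, 0, 116 and 0 counts, so that H2-Eb1 was seen in mouse 4 without it. H2-Aa, the alpha chain of I-A, had 0 counts in every library, and H2-Ab1, its beta chain, had 1 count, in mouse 3. Cd74 is normally more abundant than the single chains in cells that present antigen.

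The class II group summed to 0.0292, 0.185, 8.37 and 1.89 TPM (mean 2.62 ± 3.92, SD, n = 4), with a mean of 0.702 without mouse 3. Genes of the loading machinery in the wider list of 8 went differently. Lgmn, a lysosomal protease that many cell types use, had 14000, 8731, 16640 and 5549 counts. H2-DMa had 106, 342, 191 and 0 counts and H2-DMb1, which encodes the other chain of the same dimer, had 1437, 0, 1865 and 7. The chains thus differed in order over the mice, and the class II regulator Ciita, chosen after its values were seen, had 42 counts in mouse 4 and 0 elsewhere.

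The pan-leukocyte group held the only members besides globin that passed in every library. Srgn encodes serglycin, the proteoglycan that packs granules in blood cells and is also made by endothelial and other cells. Srgn (chr10:62493833-62527451) had 1431, 265, 940 and 913 counts in mice 1 to 4, and Fcer1g (chr1:171229572-171234365) had 1425, 1725, 2408 and 634. Fcer1g encodes the common gamma chain through which Fc receptors signal. Scaled to depth, Srgn was at 32.9, 10.2, 22.0 and 40.2 CPM and Fcer1g at 32.7, 66.2, 56.3 and 27.9 CPM.

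Neither gene followed the order of the globins. Srgn was highest in mouse 4, then mouse 1, then mouse 3, and lowest in mouse 2. Fcer1g was highest in mouse 2, the library with the least globin, then mouse 3, then mouse 1, and lowest in mouse 4, and both orders held under the 6 scalings. Per length, Srgn had 28.2 ± 13.4 TPM and Fcer1g 125 ± 51.6 TPM (SD, n = 4 for each). Their coefficients of variation in CPM were 49.8% and 40.3%, near the median of 50% for genes from 10 to 100 CPM. The ratio of highest to lowest CPM was 3.95 for Srgn and 2.37 for Fcer1g, against 36.6 or more for each globin.

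Fcer1g was seen largely without the proteins it serves, in genes chosen after its values were seen. The Fc receptor genes Fcgr1 and Fcer1a and the collagen receptor gene Gp6 had 0 counts in every library, and Fcgr4 had 1 count, in mouse 2. Fcgr3 had 134 counts and the downstream kinase gene Syk 85 in mouse 3, with 0 or 1 count in the other mice. In the remaining mice the gamma chain transcript was therefore present with these partners at 0 or 1 count.

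The other pan-leukocyte members were sparse. Ptprc, which encodes the CD45 antigen that the gate selected against, had 2, 2, 0 and 50 counts. Tyrobp, an adaptor of myeloid and NK cell receptors, had 78 counts in mouse 3 and 0 in the others. Laptm5, a lysosomal protein gene of hematopoietic cells, Coro1a, an actin regulator of leukocytes, and Cd52, a surface glycoprotein gene of lymphocytes, had 0 counts in all 4 libraries. Crybg2, antisense over 14.5% of the Cd52 exons, had 1, 1, 0 and 39 counts, and Bola2, antisense over 0.934% of the Coro1a exons, had between 821 and 1562.

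Because of Srgn and Fcer1g, the pan-leukocyte sum was the least variable of the 8, at 130, 188, 191 and 111 TPM (mean 155 ± 40.8, SD, n = 4). Its coefficient of variation was 26.4%, against 82.4% to 197% for the other groups. In the wider list of 13 pan-leukocyte genes none exceeded 3 counts in every library, and 9 did so in at least 1, of which 8 in a single library. Ikzf1, the lymphoid transcription factor Ikaros, had 4, 1, 27 and 0 counts, Lcp1, the leukocyte actin bundler L-plastin, had 2, 421, 1 and 0, and Dock2, an activator of Rac in leukocytes, had 0, 1, 0 and 35. Each of these was highest in a different mouse.

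**Figure D3:**
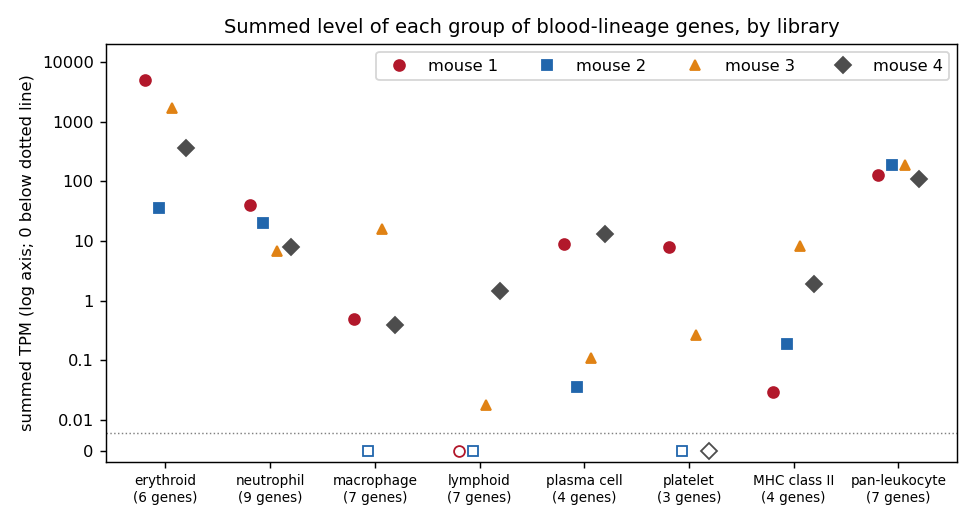
Summed TPM (vertical log axis) of the members of each of the 8 groups in each library, with open symbols at the bottom for a sum of 0. The erythroid sums run from 35.0 in mouse 2 to 4925 in mouse 1, the pan-leukocyte sums stay between 111 and 191, and the macrophage, lymphoid and platelet sums each have 1 mouse far above the others.

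Set side by side, the mice shared 14 of the 23 detected members between at least 2 libraries and differed in the other 9. Of the members above 3 counts in 1 library alone, Elane and Gp9 were in mouse 1, Mpo, C1qb, Ppbp, Cd74 and Tyrobp in mouse 3, and Cd79a and Ptprc in mouse 4, with none in mouse 2. Of all 5486 genes above 3 counts in 1 library alone, 21.5% were in mouse 1, 13.4% in mouse 2, 27.5% in mouse 3 and 37.7% in mouse 4, so mouse 2 had the fewest there too. With 1 library of 100 cells per mouse, differences between mice and differences between sorts, cDNA reactions or libraries cannot be told apart.

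**Figure D4:**
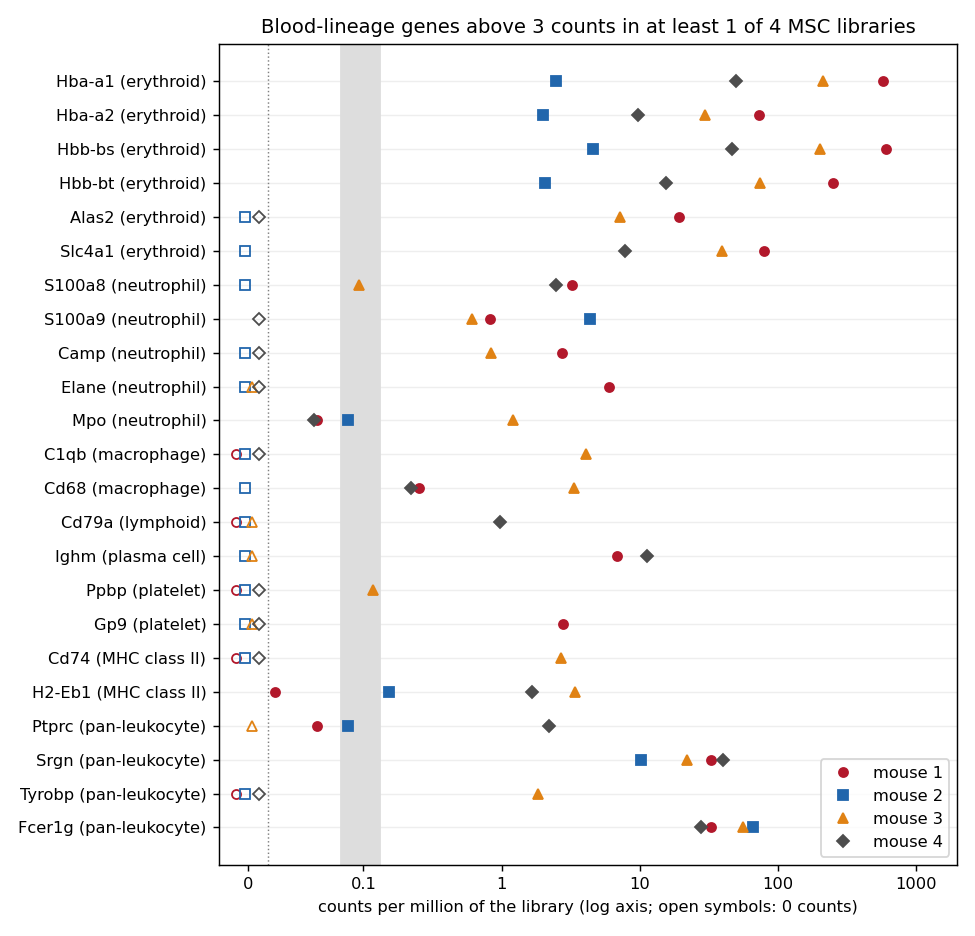
Level (horizontal log axis, CPM) of the 23 members above 3 counts in at least 1 library, with 1 symbol per mouse, open symbols left of the dotted line for 0 counts and a grey band over the range that 3 counts correspond to, 0.0689 to 0.132 CPM. The globins spread over the widest range in one order of the mice, Srgn and Fcer1g lie close together, and most other members have a symbol in 1 to 3 libraries.

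By the median level, with the cutoff of 1 TPM that the study applied to ligands and receptors, 13 of the 47 members (27.7%) passed, against 22.9% of the 52125 genes with a length. That baseline includes genes that are not protein-coding, and the share of protein-coding genes by this measure was not computed. By detection in every library, the share was 37% of protein-coding genes and 17.6% of all listed genes. The 13 members were the 6 genes seen in every library and Slc4a1, Alas2, S100a8, S100a9, Camp, Ighm and H2-Eb1. Alas2, Camp and Ighm were among them although each had 0 counts in 2 of the 4 mice, since the median of 4 values is the mean of the middle pair.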

How the data were processed

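For each of 4 mice, 100 sorted MSCs were reverse transcribed from poly(A) tails by template switching, and the full-length cDNA was amplified and tagmented. The authors processed reads with bcl2fastq 2.20.0, aligned them to GRCm39 with STAR 2.7.10 and used featureCounts of Subread 1.6.5 to count the uniquely mapped pairs that fell on exons, and the deposited counts are raw whole numbers per Ensembl gene. No strand option is stated. No molecular identifiers are described, so intervals (Wilson, 95%) and the floor of 3 counts cover counting error only. The replicate is the mouse, and all mice form 1 group.

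From these counts, CPM and TPM (per 1000000, merged exon lengths of GENCODE M21 on GRCm38, covering 52125 genes) were computed with Python 3.11.15, numpy 2.4.6, pandas 2.3.3 and scipy 1.17.1, and plotted with matplotlib 3.10.9. The builds differ, so a TPM is off by the ratio of lengths where exons changed. Promoters are from RefSeq (GRCm38.p6), with an entry for 33 of the 47 members. Scripts were tested on simulated data. TMM (edgeR 4.0.16) and DESeq2 1.42.0 factors served as alternatives for scaling only (R 4.3.3).

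The members and the wider lists were chosen with earlier results of these data known. Named were all members, with counts for those above 3 in any library, the 3 genes of each wider list with the highest median count, embryonic globins and genes whose exons overlap a member. Where medians tied at 0, table order decided. Genes outside this rule are said to have been chosen after their values were seen. Ahsp of the wider erythroid list was not analysed here. Some genes that this rule names are not reported here.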

Additional observations from a re-analysis of the deposited data

Results flagged for a closer look

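For 13 of 32 values compared over the 4 mice, which are the sums of the groups, the members seen in any library and the share of counts on all members, 1 mouse stood apart from the other 3, by a gap to the nearest mouse that, as a share of the range of all 4, passed the 95% critical value of Dixon's test. Chance flags about 1 in 20 values that were not selected. Here that rate is no yardstick, since the members entered by exceeding 3 counts in any library, and a member that did so through 1 library alone had to stand apart. The values are given as a description. In each case the outlying value was the highest.

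Among the sums, the macrophage members reached 16.0 TPM in mouse 3 (next highest 0.497), the lymphoid members 1.46 TPM in mouse 4 (next 0.0177) and the platelet members 7.95 TPM in mouse 1 (next 0.267). In mouse 3 the single genes were Mpo with 0.879 TPM, C1qb with 9.36, Cd68 with 6.63, Ppbp with 0.267, Cd74 with 4.0 and Tyrobp with 6.77. In mouse 1 they were Elane with 15.1 TPM and Gp9 with 7.87. In mouse 4 they were Cd79a with 1.46 TPM and Ptprc with 0.264. For 7 of these 10 genes the other 3 mice had 0 counts. Mouse 2 had none.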

How the results depend on the processing

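With 1 group there is no direction to reverse, and 183 of 199 recomputed values stayed within the spread between mice or within 1.5 times a count. For the summed levels that spread was larger than the mean in all groups but the neutrophil and pan-leukocyte ones. A fall of the mean could not pass it there, so the number of unchanged values does not measure stability. Asking for at least 1 count gave 1 neutrophil gene and 1 MHC class II gene in every library (none above 3 counts). More than 3 counts in at least 3 libraries gave 11 members, with 2 neutrophil, 1 macrophage and 1 class II gene, and a median above 1 TPM gave 13, with 3 neutrophil, 1 plasma cell and 1 class II gene. Both ask for fewer libraries by construction. Without gene lengths the pan-leukocyte sum was 73.1 CPM against 155 TPM, a change of unit. TMM, DESeq2 factors, totals without abundant genes, the longest transcript, a minimum of 10 counts, scaling to the shallowest library and omission of members with overlapping exons moved no value further than the SD between mice, which is wide. Within it, that omission, which drops Cd74, took the class II sum from 2.62 to 1.62 TPM. The median over mice in place of the mean gave 1022 TPM for erythroid, 0.441 for macrophage, 0.00885 for lymphoid, 0.134 for platelet and 1.04 for class II members.

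Leaving out each mouse in turn gave 6 to 9 members in every remaining library, 9 without mouse 2, which adds Cd68, S100a8 and Slc4a1. The range was 4 to 5 for erythroid, 0 to 1 for neutrophil (1 without mouse 2 or mouse 4), 0 to 1 for macrophage (1 without mouse 2) and 0 to 1 for class II genes (1 without mouse 1), 2 to 2 for pan-leukocyte genes and 0 to 0 for the others. The wider lists gave 11 to 18 of 120 genes, 18 without mouse 2. With all 4 mice they gave 11 of 120, where 17.6% of all listed genes and 37% of protein-coding genes exceeded 3 counts in every library. A list of 8 blood stem and progenitor genes is among these, with 0 genes above 3 counts in every library. The share of counts was 0.0323% to 0.0857%. The summed TPM was 693 to 2323 for erythroid, 11.5 to 22.4 for neutrophil, 0.294 to 5.62 for macrophage, 0.00590 to 0.493 for lymphoid, 3.06 to 7.47 for plasma cell, 0.0891 to 2.74 for platelet, 0.702 to 3.48 for class II and 143 to 170 for pan-leukocyte members. No paired analysis was possible because all libraries belong to 1 group. A gene at 0 is undetected at up to 0.132 CPM in the shallowest library, not absent.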
